A study of Homo sapiens with 10 samples.

Results

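Syndecans and glypicans are cell surface proteoglycans that carry heparan sulfate, and 8 of them were followed by RNA-seq through a mesenchymal to epithelial series of prostate cancer lines. They were the 4 syndecans (SDC1, SDC2, SDC3 and SDC4) and 4 glypicans (GPC1, GPC3, GPC4 and GPC6). Their entries were taken by gene symbol, which gave 8 of the 23170 gene entries and 12 of the 37557 isoform entries. All lines derived from PC3, an established line of human prostate cancer, and carried luciferase. The epithelial control, PC3-Epi (2 samples), is a subpopulation of PC3 chosen for its epithelial shape. PC3-EMT14 (3 samples) is 1 mesenchymal population, obtained after PC3-Epi cells had been grown together with IL4-treated macrophages. From it came a line that overexpressed the zinc finger transcription factor OVOL1 from a lentivirus, PC3-EMT14-OVOL1 (3 samples), and likewise one for OVOL2, named PC3-EMT14-OVOL2 (2 samples). The sequenced control is labelled PC3-EMT14 with no vector named.

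Both families are built from a core protein to which long sulfated sugar chains are attached. Syndecans cross the membrane and reach the cytoskeleton through a short cytoplasmic tail, whereas glypicans are held on the outer face by a lipid anchor. The heparan sulfate chains bind growth factors, chemokines and matrix proteins, so these molecules act as co-receptors for FGF, Wnt, Hedgehog and BMP signalling and as partners of integrins. SDC1 is the main syndecan of epithelia, SDC2 is known from mesenchymal cells, SDC3 from neural tissue, and SDC4 is widespread and sits in focal adhesions.

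The measurement was FPKM, the number of fragments scaled to transcript length and to library size, the latter here by upper-quartile scaling. The authors pooled it over the samples of a line. Each line therefore has 1 value per table, and no SD or n can be attached to that value. Each of 4 gene tables sets a line against another, with PC3-EMT14 the shared control of 3 of them. No p-value is therefore given, and a difference is described as past 2-fold when the ratio of the FPKM values was at least 2 or at most 0.5 and the higher line had at least 1 FPKM. How far samples of a line spread, and hence whether any difference exceeds that spread, was not analysed here. Between tables, which were normalized separately, the value of a member in the same line changed by a factor of 0.968 to 1.01. In a bulk RNA sample, fewer cells of a kind and less RNA per cell cannot be told apart.

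The labels were checked against marker genes. OVOL1 was at 11.3 FPKM in PC3-EMT14-OVOL1 against 0.0238 in its control, and OVOL2 at 831 FPKM in PC3-EMT14-OVOL2 against 0.370. Of 6 epithelial markers other than OVOL1 and OVOL2, which were themselves overexpressed, 4, 5 and 6 were past 2-fold higher than in PC3-EMT14 in the OVOL1 line, the OVOL2 line and PC3-Epi. Of all genes 2.43%, 4.42% and 7.37% were past 2-fold higher. Of 5 mesenchymal markers 4 reached 1 FPKM, all but ZEB2. Of these 4, 0, 3 and 2 were past 2-fold lower, against 1.54%, 2.93% and 8.34% of all genes. CDH2 was not past 2-fold in any of the comparisons, and FN1 was at 33.8 FPKM in PC3-Epi against 36.8. Among prostate luminal markers KLK3 was listed at 0 in every line. The macrophages of the co-culture were looked for with 10 markers, of which all but CD68 were under 0.1 FPKM in every line, with a summed level of 0.310 to 0.320 FPKM in PC3-EMT14 and 0.187 to 0.379 in the other lines. CD68 itself stood at 52.4 to 54.1 FPKM in PC3-EMT14 and 13.2 in PC3-Epi.

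The stretches of promoter that precede the 3 most abundant syndecan genes are shown because SDC1 and SDC3 were past 2-fold lower in PC3-Epi and SDC4 was the syndecan with higher values there. They come from RefSeq on GRCh38.p14, are written 5′ to 3′ on the strand of the gene, and end at the base before the transcription start. Capitals mark the E-box CAGGTG, read on either strand, a motif that ZEB factors are known to bind. The SDC1 stretch lies at chr2:20225476-20225725 on the minus strand, upstream of the more distal of the 2 listed starts.
SDC1: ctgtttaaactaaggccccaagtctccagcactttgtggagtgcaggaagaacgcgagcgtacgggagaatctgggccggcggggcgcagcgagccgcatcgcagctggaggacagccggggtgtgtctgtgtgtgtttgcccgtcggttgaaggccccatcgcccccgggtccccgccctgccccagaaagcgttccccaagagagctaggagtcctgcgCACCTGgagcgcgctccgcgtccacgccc
The SDC3 stretch lies at chr1:30908759-30909008 on the minus strand.
SDC3: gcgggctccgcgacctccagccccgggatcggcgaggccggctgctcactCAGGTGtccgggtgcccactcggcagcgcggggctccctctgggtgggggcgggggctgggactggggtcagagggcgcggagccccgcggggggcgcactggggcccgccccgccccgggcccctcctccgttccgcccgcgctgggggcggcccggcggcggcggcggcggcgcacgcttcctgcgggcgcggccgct
The SDC4 stretch lies at chr20:45348425-45348674 on the minus strand.
SDC4: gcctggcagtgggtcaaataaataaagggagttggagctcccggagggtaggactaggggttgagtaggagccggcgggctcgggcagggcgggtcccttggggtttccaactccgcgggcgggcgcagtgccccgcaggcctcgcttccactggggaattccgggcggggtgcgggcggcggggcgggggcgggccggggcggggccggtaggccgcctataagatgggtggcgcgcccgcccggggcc
The E-box was found in 2 of 7 promoter windows of 6 members, each window running from 250 bases before to 50 bases after a start. In SDC1 it stood as CACCTG with its first base 29 bases before the start, and in SDC3 as CAGGTG 200 bases before it. Of all 35116 windows in the table, 20.6% held it. CCGTTA, 1 form of the core of OVO sites, was searched on either strand and found in 0 of the 7 windows, and in 3.07% of all windows. Other forms of that core were not searched. A match describes the letters of the window and not a bound site. The window of the other SDC1 start, which is not shown, held neither of these strings. Neither did the searched windows of SDC4, GPC1, GPC4 and GPC6.

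SDC1, the main syndecan of epithelia, was the most abundant member in PC3-EMT14 and in both OVOL lines, but not in PC3-Epi. Its level was 223 FPKM in PC3-EMT14 and 133 in PC3-EMT14-OVOL1, at 221 in PC3-EMT14 and 103 in PC3-EMT14-OVOL2, and at 228 in PC3-EMT14 and 69.8 in PC3-Epi. The mesenchymal line was thus the highest and the epithelial line the lowest, with the OVOL lines between them. The differences were 1.68-fold for OVOL1 (log2 ratio -0.74), 2.13-fold for OVOL2 (-1.09) and 3.27-fold for PC3-Epi (-1.71), so the last 2 were past 2-fold. In the OVOL1 comparison only 2.46% of genes had a lower ratio, in the OVOL2 comparison 2.11%, and in the PC3-Epi comparison 3.62%. By FPKM SDC1 ranked 295 among all genes of PC3-EMT14, counted from the highest, and 1223 among those of PC3-Epi. The gene lies on hg19 chr2:20400558-20425194 on the minus strand, and no other annotated gene overlaps it.

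SDC4, which binds protein kinase C alpha in focal adhesions, had the opposite order. Its level was 53.9 FPKM in PC3-EMT14 and 60.1 in PC3-EMT14-OVOL1, at 53.4 and 82.3 in the OVOL2 table, and at 55.1 and 101 in the PC3-Epi table. No SDC4 difference was past 2-fold, and the OVOL2 ratio of 1.54 and the PC3-Epi ratio of 1.83 were past 1.5-fold. Of all genes in the PC3-Epi comparison 91.3% had a lower ratio than SDC4, and 92.5% in the OVOL2 comparison. In PC3-Epi SDC4 was the most abundant of the 8 members. The gene lies on hg19 chr20:43953929-43977064 on the minus strand.

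SDC3, the neural syndecan, separated PC3-Epi from the other lines. Its level was 12.1 FPKM in PC3-EMT14 and 4.11 in PC3-Epi, a 2.94-fold lower value (log2 ratio -1.56). It stood at 12.0 in PC3-EMT14-OVOL1 against 11.8 in its control and at 11.5 in PC3-EMT14-OVOL2 against 11.7, so that neither OVOL line was near the PC3-Epi level. The OVOL2 log2 ratio of -0.03 became 0.01 once the median ratio of all genes was set to 0, so no direction is given for it. The gene lies on hg19 chr1:31342313-31381480 on the minus strand.

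SDC2, the syndecan of mesenchymal cells, was close to the lower limit used here. Its level was 1.00 FPKM in PC3-EMT14 and 0.245 in PC3-EMT14-OVOL1, a 4.10-fold lower value that counts as past 2-fold only because PC3-EMT14 was just above 1 FPKM in that table. The same line was at 0.994 in the OVOL2 table, where PC3-EMT14-OVOL2 was at 0.737, and at 1.03 in the PC3-Epi table, where PC3-Epi was at 0.595. PC3-EMT14-OVOL1 was therefore the lowest of the lines for SDC2. With 1 added to every FPKM the OVOL1 log2 ratio was -0.69 in place of -2.04. SDC2 lies on hg19 chr8:97505882-97624037 on the plus strand.

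**Figure D1:**
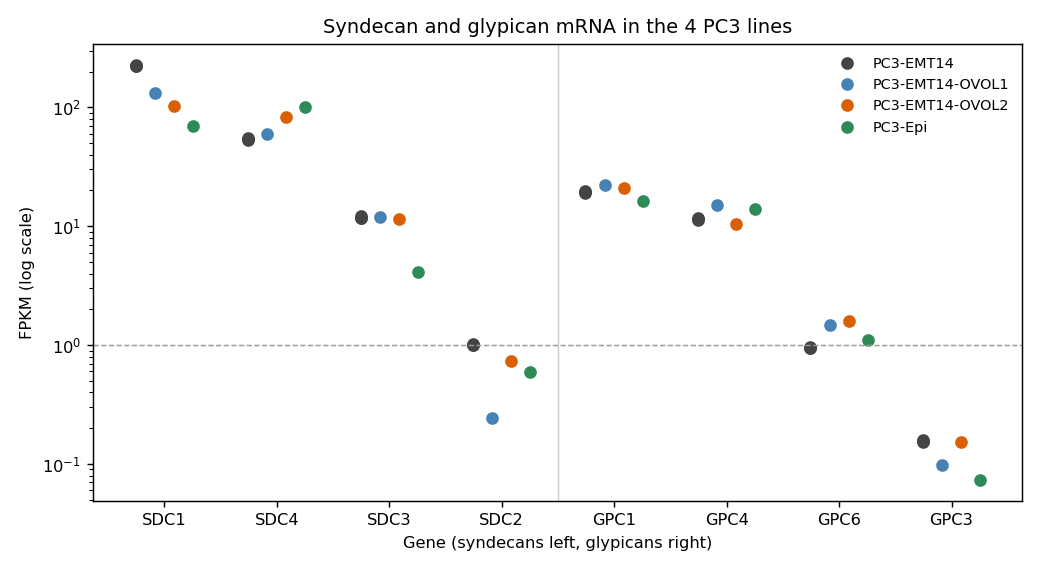
Pooled FPKM of each syndecan and glypican on a log axis, with 1 point per line and table, so that PC3-EMT14 has 3 overlapping points per gene and no error can be drawn. The dashed line marks 1 FPKM, and SDC1 goes from 228 in PC3-EMT14 to 69.8 in PC3-Epi while SDC4 goes from 55.1 to 101.

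No glypican was past 2-fold in any comparison. GPC1, the most abundant of them, was at 19.4 FPKM in PC3-EMT14 and 22.4 in PC3-EMT14-OVOL1, at 19.2 and 21.1 in the OVOL2 table, and at 19.8 and 16.4 in the PC3-Epi table. Its ratios to PC3-EMT14 ran from 0.827 to 1.16. The gene lies on hg19 chr2:241375115-241407495 on the plus strand, where the antisense gene GPC1-AS1 and the microRNA gene MIR149 overlap it. Strand use in the counting is not given in the sources used here, so reads of GPC1 and GPC1-AS1 could not be told apart.

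GPC4, a glypican known from kidney and brain, was at 11.5 FPKM in PC3-EMT14 and 15.0 in PC3-EMT14-OVOL1. In the OVOL2 table it was at 11.3 and 10.5, and in the PC3-Epi table at 11.7 and 14.0. When PC3-EMT14-OVOL2 was set directly against PC3-EMT14-OVOL1, GPC4 was at 10.4 and 14.9, and only 3.23% of genes had a lower ratio. GPC4 lies on hg19 chrX:132435064-132549205 on the minus strand, 120570 bases from the next member, GPC3.

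GPC6, which is related to GPC4 in sequence, was at 0.953 FPKM in PC3-EMT14 and 1.47 in PC3-EMT14-OVOL1, at 0.943 and 1.61 in the OVOL2 table, and at 0.973 and 1.10 in the PC3-Epi table. Both OVOL lines were past 1.5-fold above the mesenchymal line (ratios 1.54 and 1.70) and also above PC3-Epi. These levels are low, and 7 antisense genes overlap GPC6 on hg19 chr13:93879078-95060273. GPC3, an oncofetal glypican known from liver cancer, was under 0.16 FPKM in every line, from 0.0733 in PC3-Epi to 0.158 in PC3-EMT14, and is not read further. It lies on hg19 chrX:132669776-133119673 on the minus strand.

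Counted over the family, 1 of 7 members with enough FPKM was past 2-fold lower in PC3-EMT14-OVOL1 (SDC2), where 1.54% of all genes were. The count was 1 of 6 in PC3-EMT14-OVOL2 (SDC1), where 2.93% of all genes were past 2-fold lower, and 2 of 7 in PC3-Epi (SDC1 and SDC3), where 8.34% were. No member was past 2-fold higher in any of the 3, against 2.43%, 4.42% and 7.37% of all genes. At 1.5-fold in either direction 3 members were past it with OVOL1 (GPC6, SDC1 and SDC2; 8.80% of all genes), 3 with OVOL2 (GPC6, SDC1 and SDC4; 15.0%) and 4 in PC3-Epi (the 4 syndecans; 31.5%). Between the OVOL lines 0 of 6 members were past 2-fold, against 3.08% of all genes, and 0 past 1.5-fold, against 7.47%. With so few members these shares are a description and do not set the family apart.

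The median log2 ratio of the members with enough FPKM came to 0.16, 0.05 and -0.27 for OVOL1, OVOL2 and PC3-Epi against PC3-EMT14, beside -0.00, -0.04 and -0.01 over all genes. Without sign, the median was 0.39, 0.38 and 0.79, beside 0.15, 0.21 and 0.36. The members thus spread to both sides of 0, with SDC1 below it and SDC4 above it in each comparison. With OVOL1 the SDC4 log2 ratio of 0.16 was itself the median of the members, a 1.11-fold difference.

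**Figure D2:**
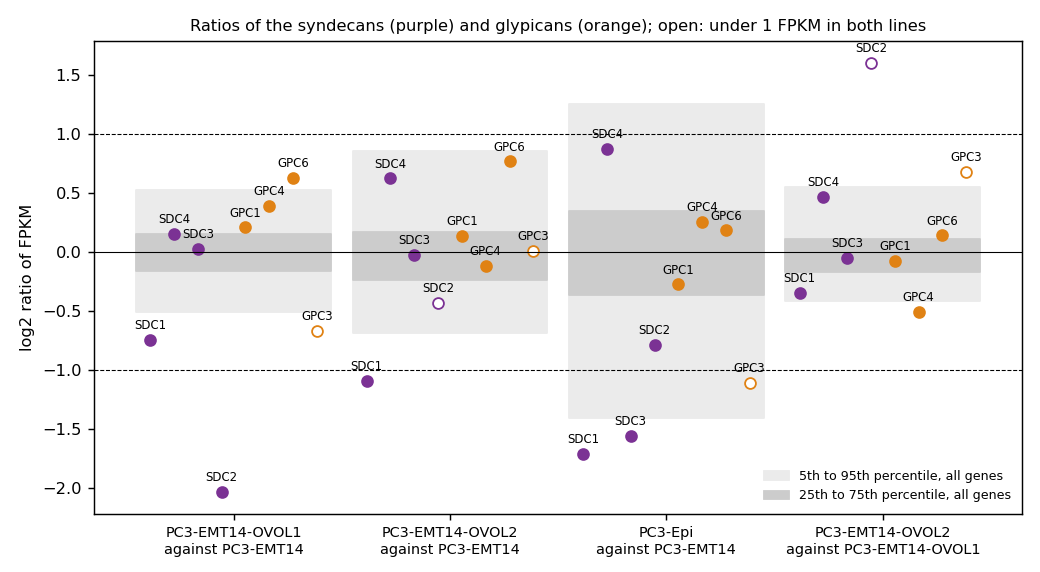
Log2 ratio of FPKM for each member in the 4 comparisons, with grey bands for the 5th to 95th and 25th to 75th percentiles of all genes with at least 1 FPKM in the higher line and dashed lines at 2-fold. SDC1 lies below the wider band in the 3 comparisons against PC3-EMT14 (-0.74, -1.09 and -1.71), and open circles are members under 1 FPKM in both lines.

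Because FPKM is scaled to transcript length, levels of different members can be set side by side. The syndecans summed to 287 to 296 FPKM in PC3-EMT14, 206 in PC3-EMT14-OVOL1, 198 in PC3-EMT14-OVOL2 and 176 in PC3-Epi. The glypicans summed to 31.6 to 32.7 FPKM in PC3-EMT14, and to 39.0, 33.3 and 31.6 in the OVOL1 line, the OVOL2 line and PC3-Epi. The total of the family was therefore lower outside PC3-EMT14 through the syndecans, mainly SDC1, while SDC4 was higher in each of the other lines. The glypican part of the total was 9.93% in PC3-EMT14 and 16.0%, 14.4% and 15.3% in the other lines.

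Within the syndecans SDC1 took 77.0% of the summed FPKM in PC3-EMT14. Its share was 64.8% in the OVOL1 line, 52.3% in the OVOL2 line and 39.8% in PC3-Epi. SDC4 took 18.6%, 29.2%, 41.6% and 57.6% in the same order. The ratio of SDC1 to SDC4, which is formed within a line and so does not depend on the scaling between lines, was 4.14 in PC3-EMT14 in each of its 3 tables. It was 2.22 in PC3-EMT14-OVOL1, 1.26 in PC3-EMT14-OVOL2 and 0.690 in PC3-Epi, where the order of the genes was reversed. Among the glypicans the ratio of GPC1 to GPC4 ran 1.69, 1.49, 2.02 and 1.17 through the same lines, with no such order.

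SDC1 was the only member beside GPC3 with more than 1 isoform entry. Its major isoform, TCONS_00019710 in the authors' numbering, was at 205 FPKM in PC3-EMT14 and 117 with OVOL1, at 203 and 88.0 in the OVOL2 table, and at 210 and 61.2 in the PC3-Epi table. The minor isoform TCONS_00019711 was at 17.8 and 16.0, 17.6 and 15.5, and 18.2 and 8.58 FPKM in the same tables. The lower SDC1 level of the OVOL lines thus lay in the major isoform, at log2 ratios of -0.81 and -1.21 beside -0.15 and -0.18 for the minor one, while in PC3-Epi both were past 2-fold lower (-1.78 and -1.08). The minor isoform made up 7.96% to 7.97% of SDC1 in PC3-EMT14. Its share was 12.0% in the OVOL1 line, 15.0% in the OVOL2 line and 12.3% in PC3-Epi. Which transcripts these isoforms are is not stated in the tables, and their split is an estimate of the authors' software. GPC3 had 4 isoform entries, all under 0.16 FPKM, and the other 6 members had 1 each.

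**Figure D3:**
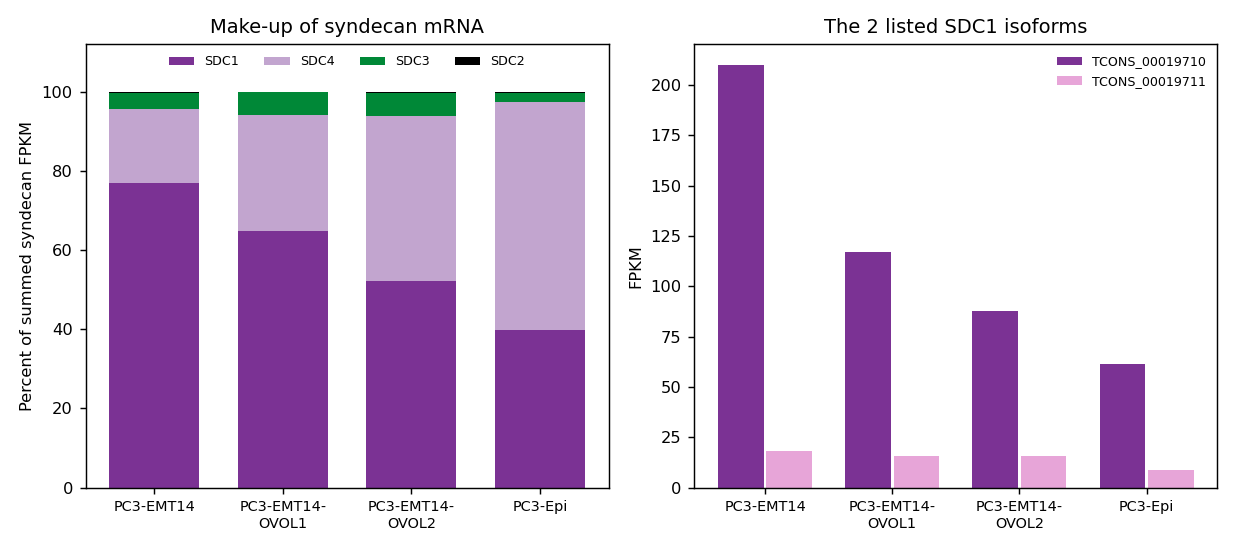
On the left, the percent of summed syndecan FPKM taken by each syndecan in each line, and on the right the FPKM of the 2 SDC1 isoforms, each bar a single pooled value. SDC1 goes from 77.0% of syndecan FPKM in PC3-EMT14 to 39.8% in PC3-Epi, and the taller bars of the right panel go from 210 to 61.2 FPKM.

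The genes with log2 ratios most like those of SDC1 over the 3 comparisons against PC3-EMT14, which share that control, were BMPR1B, a BMP receptor (-0.73, -1.15 and -1.71), BCL7A (-0.80, -1.18 and -1.71) and C5orf39 (-0.63, -1.11 and -1.66). Their root mean square distances from SDC1 were 0.033, 0.060 and 0.071 on the log2 scale, over 11987 genes compared. For SDC3 the nearest were FERMT2, an integrin-binding kindlin, at 0.054, C11orf9 at 0.064 and C19orf33 at 0.064. For SDC2 no gene was as close, with IL11, a cytokine, at 0.43, TMEM47 at 0.44 and BEX4 at 0.47.

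The core proteins need enzymes to build and edit their chains. Of 12 genes that start and polymerize heparan sulfate, 10 reached 1 FPKM, and 0 of them were past 2-fold with OVOL1 or in PC3-Epi. In these comparisons 3.97% and 15.7% of all genes were past 2-fold either way. With OVOL2 1 of the 10 was past 2-fold lower, where 2.93% of all genes were. This was EXTL2, a glycosyltransferase acting on the linkage region, at 4.10 FPKM against 9.28. The median log2 ratio of the list was -0.04, -0.10 and -0.26 in the 3 comparisons, beside the -0.00, -0.04 and -0.01 of all genes.

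Of 23 genes that modify the chains, 13 reached 1 FPKM, and 0, 2 and 3 were past 2-fold lower in the OVOL1 line, the OVOL2 line and PC3-Epi, against 0 higher. Of all genes 1.54%, 2.93% and 8.34% were past 2-fold lower in these comparisons. The list's median log2 ratios were -0.05, -0.32 and 0.05, beside -0.00, -0.04 and -0.01 over all genes. SULF2, an extracellular enzyme that removes sulfate groups from the chains, was the most abundant of those past 2-fold. Its level was 210 FPKM in PC3-EMT14 and 127 with OVOL1, at 208 and 91.5 in the OVOL2 table, and at 215 and 89.0 in the PC3-Epi table. HS3ST5, a 3-O-sulfotransferase, was at 2.11 and 2.14, 2.09 and 0.746, and 2.15 and 0.314 FPKM in the same tables. HS6ST2, a 6-O-sulfotransferase, was at 2.39 FPKM in PC3-Epi against 5.77. SULF2 thus had the order of SDC1 over the 4 lines, though the OVOL2 line and PC3-Epi were close (ratios 0.440 and 0.415). HS6ST2 had this order too, at 3.58 FPKM against 5.65 with OVOL1 and 3.39 against 5.59 with OVOL2. HS3ST5 was near its control in the OVOL1 line.

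Of 8 other heparan sulfate proteoglycans, 7 reached 1 FPKM, and the 2 past 2-fold were both lower in PC3-Epi, where 8.34% of all genes were. Their list had median log2 ratios of -0.03, -0.10 and -0.50. HSPG2, the basement membrane proteoglycan perlecan, was at 3.05 FPKM against 11.3, beside 8.81 with OVOL1 and 9.88 with OVOL2. TGFBR3, the co-receptor betaglycan, was at 0.539 against 1.35, but at 1.84 against 1.32 in the OVOL1 line and 1.98 against 1.31 in the OVOL2 line. HSPG2 was thus nearer to its PC3-EMT14 level in the OVOL lines than in PC3-Epi. Its ratios were 0.80 with OVOL1 and 0.91 with OVOL2, beside 1.02 and 0.98 for SDC3. Of the remaining glypicans GPC2 was at 1.49 to 2.11 FPKM and GPC5 at most at 0.0221.

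Syndecans can also carry chondroitin sulfate, for which 15 of 16 genes reached 1 FPKM, with median log2 ratios of -0.23, -0.37 and -0.28. DSE, the epimerase that turns chondroitin into dermatan sulfate, was at 1.90 FPKM in PC3-EMT14 and 3.70 with OVOL1, at 1.88 and 4.39 in the OVOL2 table, and at 1.94 and 6.20 in the PC3-Epi table. It was past 2-fold higher in the last 2, where 4.42% and 7.37% of all genes were. With OVOL1 0 genes of the list were past 2-fold, against 3.97% of all genes. In PC3-Epi CSGALNACT1, which starts chondroitin chains, was also past 2-fold higher (3.70 against 1.69), beside 1.44 against 1.65 in the OVOL1 line and 1.38 against 1.64 in the OVOL2 line. Another 3 genes were past 2-fold lower in PC3-Epi. Of all genes 7.37% were past 2-fold higher there and 8.34% lower. These were CHSY3, a chondroitin synthase, at 0.0881 against 1.67, CSGALNACT2 at 5.17 against 12.3, and CHPF2 at 8.13 against 18.0.

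Of 8 genes for cytoplasmic partners of syndecans, SDCBP2 shares an entry with FKBP1A and has no value of its own. The other 7 all reached 1 FPKM and 0 of them were past 2-fold in any comparison. Of all genes 3.97%, 7.35% and 15.7% were past 2-fold either way in the OVOL1, OVOL2 and PC3-Epi comparisons, and 3.08% between the OVOL lines. The median log2 ratios of these 7 partners were 0.01, -0.10 and 0.16, and those of the ectodomain list described next were -0.12, -0.04 and 0.12. Of 9 genes whose products release the ectodomains, 4, 5 and 4 reached 1 FPKM in the OVOL1, OVOL2 and PC3-Epi comparisons. MMP14, a membrane-bound metalloproteinase that can cut SDC1, was past 2-fold lower in PC3-Epi, where 8.34% of all genes were, at 21.9 FPKM against 117. It was at 58.2 against 115 with OVOL1 and at 72.0 against 113 with OVOL2. MMP9, a secreted metalloproteinase, was past 2-fold higher with OVOL2, at 1.23 FPKM against 0.591, where 4.42% of all genes were. With OVOL1 it was at 0.408 against 0.597.

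**Figure D4:**
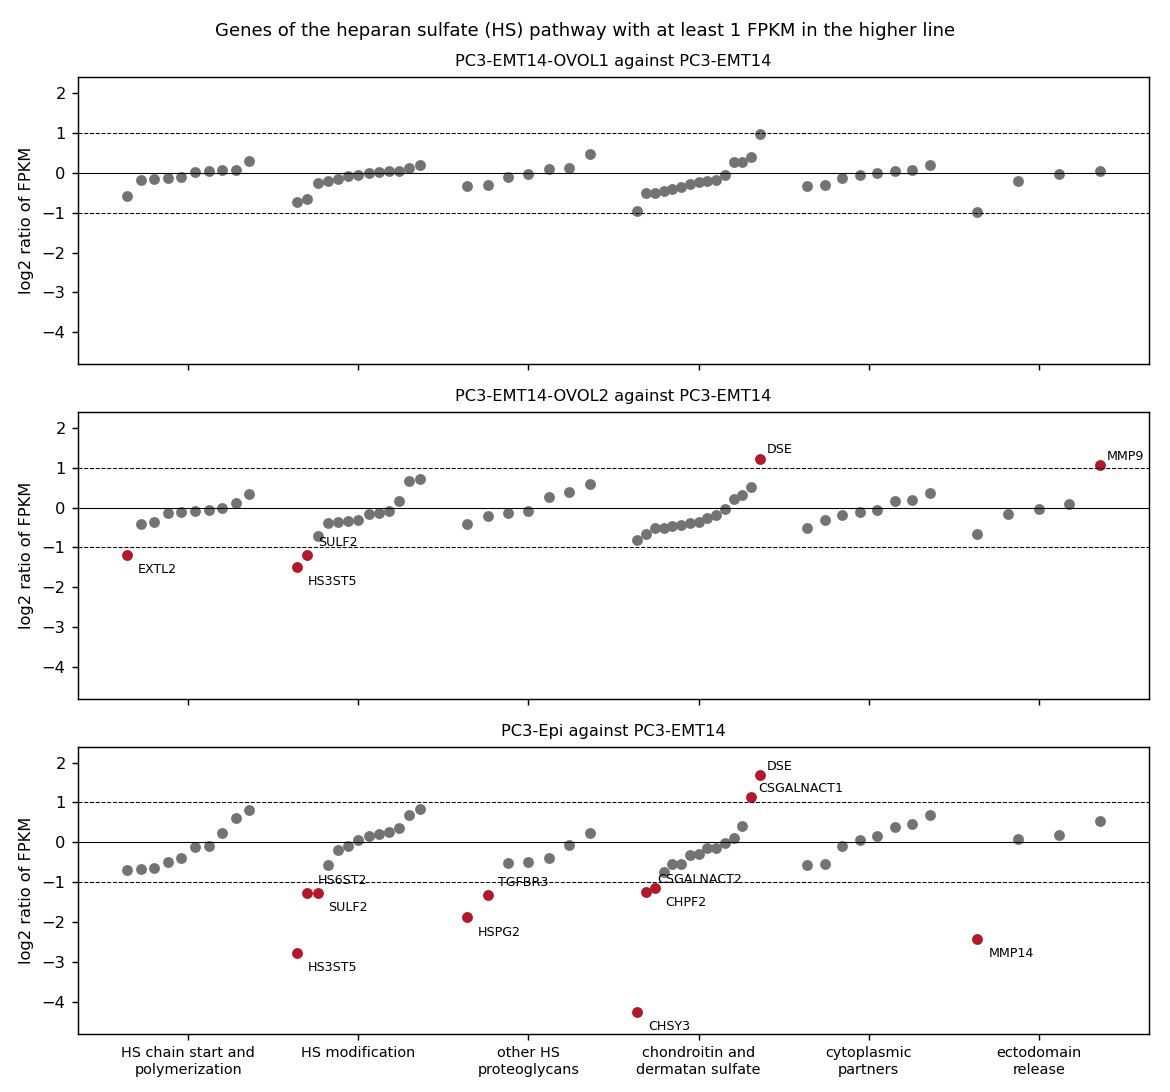
Log2 ratio of FPKM against PC3-EMT14 for the genes of 6 lists, each point a gene (for SDCBP2 its joint entry with FKBP1A) with at least 1 FPKM in the higher line and red points those past 2-fold, named beside them. No red point appears with OVOL1, and in PC3-Epi CHSY3 (-4.25), HS3ST5 (-2.78) and MMP14 (-2.42) lie lowest.

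The direct comparison of the OVOL lines gave SDC1 at 103 FPKM with OVOL2 and 132 with OVOL1, and SDC4 at 82.3 and 59.4. SDC3 was at 11.5 and 11.9, GPC1 at 21.1 and 22.2, and GPC6 at 1.61 and 1.46. SDC2 was at 0.737 with OVOL2 and 0.242 with OVOL1, a difference under 1 FPKM in both lines and therefore not counted. OVOL2 mRNA stood at 831 FPKM in the OVOL2 line and OVOL1 mRNA at 11.2 in the OVOL1 line in this table. The paper also describes different lentiviral constructs for OVOL1 and OVOL2, with a V5 tag on OVOL2. The identity, the amount and the construct of the factor therefore cannot be told apart.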

How the data were processed

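RNA-seq of 10 samples in 4 lines was analysed from 8 deposited tables, 4 of genes and 4 of isoforms. The authors aligned 50-base paired-end reads to UCSC hg19 with TopHat and ran Cuffdiff with upper-quartile scaling and corrections for multiply mapped reads and sequence bias. The authors' FPKM values are Cuffdiff estimates pooled over the samples of a line, so sample depth is unknown, replicate spread could not be computed and no test was run. The fold change, test statistic, p-value and q-value columns of the authors' own comparisons were not used. There were 0 unused columns of values per sample. Ratios were computed without a pseudocount in Python 3.11.15 with numpy 2.4.6 and pandas 2.3.3, plots with matplotlib 3.10.9, and the calling rule was tested on simulated data. Past 2-fold meant a ratio of at least 2 or at most 0.5 with at least 1 FPKM in the higher line. Named genes were all 8 members, GPC2, GPC5, the genes of each list past 2-fold (at most 4 per list and comparison, with CSGALNACT1 added after its values were seen), and the 3 genes nearest to each syndecan past 2-fold, with marker genes as checks. Members and lists were chosen with earlier results of these data known. Gene overlaps were read from GENCODE on GRCh37, promoters from RefSeq on GRCh38.p14.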

Additional observations from a re-analysis of the deposited data

How the results depend on the processing

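Other folds, FPKM floors, an added 1 FPKM, median centring and the sum of isoforms were tried. At 1.5-fold the member counts past the fold were 3, 3 and 4 for OVOL1, OVOL2 and PC3-Epi against PC3-EMT14, in place of 1, 1 and 2. At 4-fold the count was 0 for OVOL2 and 0 for PC3-Epi. For OVOL1, where SDC2 is near 1 FPKM, it was 0 with a floor of 5 FPKM and 0 with 1 FPKM added. With no floor 1 member, SDC2, was past 2-fold between the OVOL lines, where 16.1% of all genes were. In PC3-Epi 3 members were past 2-fold without a floor (GPC3, SDC1 and SDC3), where 30.7% of all genes were. The median log2 ratio of the members was then -0.53 in PC3-Epi and 0.046 between the OVOL lines, in place of -0.27 and -0.06. Of 104 member ratios under an alternative, 99 moved by less than 1.5-fold. The other 5 were SDC2 and GPC3 with 1 FPKM added. None that was past 2-fold reversed, and 1, that of SDC3 with OVOL2, changed sign, to 0.01 after centring.

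No paired analysis was possible because each line has 1 pooled value per table, and for the same reason no replicate was left out. Sample depth is unknown, and the low SDC2, GPC3 and GPC6 values have no stated precision.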
